A study of Mus musculus with 80 samples.

Results

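The genes described are the fibroblast growth factor (FGF) ligands, their receptors, and the adaptors, feedback inhibitors and transcription factors that act below them. They were chosen by symbol, which gave 42 genes of the 25899 in the deposited table: 22 Fgf genes, the 4 receptors *Fgfr1* to *Fgfr4* with *Fgfrl1*, 6 Sprouty and Spred genes (*Spry1*, *Spry2*, *Spry4*, *Spred1*, *Spred2* and *Spred3*), *Dusp4*, *Dusp5* and *Dusp6*, *Etv1*, *Etv4* and *Etv5*, and *Frs2*, *Frs3* and *Klb*. Of these, 37 had at least 1 read in a library compared here. *Fgf3*, *Fgf6*, *Fgf8*, *Fgf15* and *Fgf23* had none. A filter on low values left 30 to be tested in at least 1 comparison, and the 12 that were never tested are those 5 with *Fgf4*, *Fgf5*, *Fgf10*, *Fgf14*, *Fgf17*, *Fgf21* and *Fgf22*.

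FGF ligands bind receptor tyrosine kinases together with heparan sulphate, and the receptors pass the signal through the docking proteins *Frs2* and *Frs3* to Ras and the ERK kinases. ERK switches on its own brakes, among them the Sprouty and Spred proteins and the phosphatases *Dusp4*, *Dusp5* and *Dusp6*, and ETS transcription factors such as *Etv1*, *Etv4* and *Etv5*. In adult muscle, FGF signals act on satellite cells, the muscle stem cells (MuSCs), and *Spry1* is known for its part in their return to quiescence.

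MuSCs of extraocular muscle (EOM) and of tibialis anterior (TA) were sorted by nuclear GFP from male Tg:Pax7-nGFP mice on a C57BL/6;DBA2 F1/JRj background aged 7 or 7.6 weeks, and RNA of 500 cells per muscle was sequenced (pre-graft). Cells of the same donors were injected into TA muscles of Rag2-/-;γC-/- mice (C57BL/6J), injured beforehand with cardiotoxin, EOM cells on one side and TA cells on the other. GFP-positive cells were sorted again at day 21 by the labels (post-graft), when the labels give as few as 9 cells for an EOM library and 16 for one of TA. The paper gives a later day in its results and a range of weeks in its methods. For some grafts its cell numbers also differ from those of the labels. The libraries that passed the study's quality criteria were compared: 8 EOM and 8 TA pre-graft, 7 EOM and 7 TA post-graft, from 9 donors in 2 experiments. The transgene follows *Pax7*, so both sorts select cells by activity of that locus. The hosts lack T, B and natural killer cells, and both cell types were grafted into limb muscle only. Injury, host and the number of cells per library changed together for both. Each pre-graft library came from 500 cells, and by the labels every graft library came from far fewer. The part of this lower input in the changes after grafting, genes without a read among them, was not tested. The setting with grafts of at least 20 cells leaves out the smallest grafts and does not match the input before grafting. For EOM cells the muscle changed as well, while TA cells went into TA muscle again. With bulk RNA, fewer cells of a type and less RNA per cell cannot be told apart.

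Values are RPM, the reads on a gene scaled by the authors to the depth of its library. Over all genes they summed to 1.07e+06 to 1.53e+06 RPM in the libraries compared, so the scale has no fixed total. The libraries held 3326270 to 14402975 reads and 963669 to 4170442 reads on genes, and 1 read was worth 0.35 to 1.55 RPM. On the log2 scale of the authors a gene without a read stands at 0.9 of a read. A gene was tested with limma if 4 or more of the libraries in a comparison exceeded log2 RPM 1, and a gene was called when its adjusted p was under 0.05 and its log2 fold change beyond 1 in size. The typical gene was not at rest on this scale: the median log2 fold change of all genes tested was -0.30 for TA against EOM before grafting, -1.09 for TA after against before grafting, and -1.48 for EOM after against before grafting. The main fold changes are therefore also given relative to that median. Counts of donors in which a gene was higher or lower were not set against all genes. *Fgf3*, without a read in any library compared, was higher in TA in 6 of 7 donors before grafting. That count came from the value standing for 0 reads, which differs between libraries. The share of reads on mitochondrial genes had medians of 3.56% (EOM pre-graft), 10.7% (TA pre-graft), 33.04% (EOM post-graft) and 25.3% (TA post-graft), and its part in the results was not tested.

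*Fgfr1* and *Fgfr4* were the receptors of MuSCs before grafting. *Fgfr1* stood at 1662, 1968 and 2137 RPM (lowest, median and highest of 8) in EOM and at 1041, 1489 and 1990 RPM in TA. *Fgfr4* stood at 425, 606 and 708 RPM in EOM and at 389, 580 and 969 RPM in TA. Both groups overlapped for both genes. Per kilobase of exons, which sets genes of different length side by side, the median level in EOM was 199 RPM for *Fgfr1*, 171 for *Fgfr4*, 5.82 for the decoy-like receptor *Fgfrl1*, 2.65 for *Fgfr3* and 0.602 for *Fgfr2*. *Fgfr1* and *Fgfr4* overlapped in this measure (168 to 216 RPM per kilobase for *Fgfr1*, from 120.06 upwards for *Fgfr4*), and each exceeded *Fgfrl1*, *Fgfr3* and *Fgfr2* in every EOM library. In TA the medians were 151 for *Fgfr1* and 164 for *Fgfr4*, again with overlap. *Fgfr2* is the least certain of them, because its annotated span covers 37 other genes of the table and the counting rule is not stated.

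**Figure D1:**
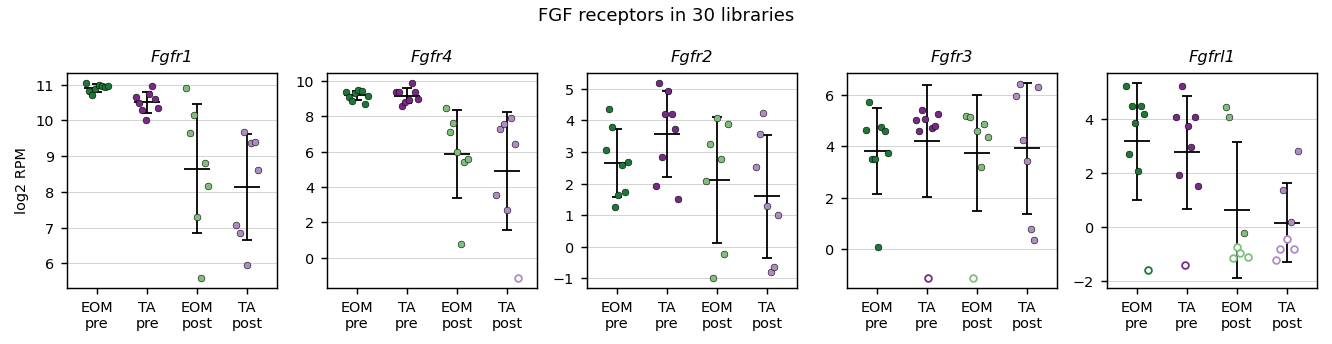
Deposited log2 RPM (y axis) of the FGF receptors in the 4 groups (x axis; 8, 8, 7 and 7 libraries). Points are libraries, open points have no read, and bars are mean ± SD. The pre-graft points of *Fgfr1* and *Fgfr4* lie close together and the post-graft points are spread over several log2 units below them, except that the highest EOM graft of *Fgfr1* lies within the pre-graft range.

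No receptor was called between TA and EOM before grafting. The log2 fold change (TA over EOM) was -0.40 ± 0.13 (SE, adjusted p = 0.0677) for *Fgfr1*, -0.11 relative to all genes, and -0.01 ± 0.17 for *Fgfr4*. *Fgfr1* was lower in the TA library of 7 of the 7 donors with both muscles, by -0.0002 to -0.97 log2 units, and with the donor mouse as block its log2 fold change was -0.47 (adjusted p = 0.0446), still under the size needed for a call. *Fgfr2*, *Fgfr3* and *Fgfrl1* had standard errors of 0.62 to 0.93 log2 units, and a difference of that size was not detectable.

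The genes called higher in TA before grafting were feedback inhibitors. Of 26 genes tested, *Dusp5* and *Spred1* were called higher in TA, where 1.26% of all genes tested were called in that direction, and *Etv1* was called higher in EOM, where 3.31% were. *Dusp5*, a nuclear phosphatase that removes the activating phosphates from ERK, stood at 38.9, 49.9 and 80.6 RPM in EOM and at 114, 155 and 226 RPM in TA. The groups did not overlap, as for 0.477% of genes tested in that direction, and TA was higher in 7 of 7 donors. The log2 fold change was 1.48 ± 0.19 (SE, adjusted p = 1.76e-05), 1.78 relative to all genes, and 1.38 in Experiment 2 alone (adjusted p = 0.00224).

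*Spred1*, which holds the Ras inhibitor neurofibromin at the membrane, stood at 60.9, 100.02 and 158 RPM in EOM and at 141, 238 and 398 RPM in TA. The 2 ranges met only at their edges. TA was higher in 6 of 7 donors, a count that *Fgf3*, without a read, also reached. The log2 fold change of *Spred1* was 1.33 ± 0.22 (adjusted p = 0.0004), and 1.16 in Experiment 2 alone (adjusted p = 0.0263). Leaving out any 1 of the 16 libraries kept the calls of *Dusp5* and *Spred1*. Neither was called when the failed libraries were added or when the 4 groups shared 1 estimate of the spread. Among the failed libraries, that of EOM mouse 1 of Experiment 1 before grafting held 302 reads on genes. A gene without a read enters there at log2 RPM 10.7. The setting with the failed libraries therefore cannot judge comparisons with EOM before grafting.

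*Dusp6*, the cytoplasmic phosphatase of ERK, stood at 0, 24.8 and 45.99 RPM in EOM and at 32.3, 61.6 and 151 RPM in TA, higher in TA in 7 of 7 donors. The groups overlapped. Its log2 fold change of 2.25 ± 0.72 missed the threshold (adjusted p = 0.0575), and 1 EOM library (mouse 2 of Experiment 2) had no read: without it the log2 fold change was 1.46 ± 0.35 with an adjusted p of 0.0114. It was also called without EOM mouse 4 of Experiment 1, EOM mouse 1 of Experiment 2 or TA mouse 3 of Experiment 2 (2.44, 2.49 and 2.41). *Dusp6* was called when libraries were centred on their median (adjusted p = 0.0441), by edgeR (adjusted p = 0.0219), by DESeq2, with mitochondrial genes left out of the scaling (adjusted p = 0.0487) and with the donor mouse as block (adjusted p = 0.0443). It was not called in Experiment 2 alone (2.96, adjusted p = 0.0925), in 1 fit over the 4 groups (adjusted p = 0.0986) or with the failed libraries added (1.41, adjusted p = 0.314).

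*Spry4* pointed the same way in 7 of 7 donors, from 24.4, 30.02 and 38.8 RPM in EOM to 9.58, 56.3 and 106 RPM in TA. Its log2 fold change of 0.72 ± 0.35 was not called (adjusted p = 0.199), while without TA mouse 3 of Experiment 2 (1.06, adjusted p = 0.00258), with the donor mouse as block (1.06, adjusted p = 0.0088), by edgeR (1.20, adjusted p = 0.0287) and by DESeq2 (1.22, adjusted p = 0.00557) it was. The TA library of mouse 3 of Experiment 2 held the 9.58 RPM. That library is in neither the donor pairs nor the block, since its EOM partner failed the quality criteria. The call with the block was thus also made without it. *Spry4* was not called after centring (0.96, adjusted p = 0.104), in Experiment 2 alone (0.67, adjusted p = 0.43), with mitochondrial genes left out of the scaling, with the failed libraries added (0.07) or in 1 fit over the 4 groups. With the donor mouse as block the genes called higher in TA were 5 in number, *Fgf12* being the fifth. *Spry1* differed by 0.56 ± 0.22 (adjusted p = 0.119), *Spry2* by 0.15 ± 0.17 and *Spred2* by 0.21 ± 0.25. After centring on the library median, 3 genes were called higher in TA and 1 higher in EOM, where 1.77% and 2.08% of all genes were. With the donor mouse as block 5 and 1 were (2.04% and 3.31% of all genes), by edgeR 4 and 0 (1.87% and 1.45%), by DESeq2 4 and 0 (2.47% and 1.97%), in Experiment 2 alone 2 and 0 (0.734% and 2.2%), and with mitochondrial genes left out of the scaling 3 and 0 (1.73% and 2.13%).

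The stretches of 250 bases before the RefSeq start of *Dusp5*, *Spred1* and *Dusp6* (build GRCm38.p6, plus strand) are shown because these inhibitors had higher medians in the same muscle; capitals mark matches to the binding motif of serum response factor, the CArG box, which reads the same on both strands. The windows lie at chr19:53528895-53529144, chr2:117120821-117121070 and chr10:99262981-99263230, and the last bases of the *Dusp5* window lie within the gene as the deposited table annotates it.
Dusp5: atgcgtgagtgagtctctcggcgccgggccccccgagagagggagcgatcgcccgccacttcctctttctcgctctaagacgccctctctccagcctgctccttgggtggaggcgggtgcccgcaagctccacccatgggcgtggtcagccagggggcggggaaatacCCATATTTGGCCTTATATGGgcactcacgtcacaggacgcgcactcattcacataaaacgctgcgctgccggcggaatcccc
Spred1: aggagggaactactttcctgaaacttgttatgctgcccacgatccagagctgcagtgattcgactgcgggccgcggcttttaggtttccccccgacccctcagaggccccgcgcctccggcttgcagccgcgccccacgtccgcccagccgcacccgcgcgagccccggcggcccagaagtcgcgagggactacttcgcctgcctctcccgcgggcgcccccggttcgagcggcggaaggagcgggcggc
Dusp6: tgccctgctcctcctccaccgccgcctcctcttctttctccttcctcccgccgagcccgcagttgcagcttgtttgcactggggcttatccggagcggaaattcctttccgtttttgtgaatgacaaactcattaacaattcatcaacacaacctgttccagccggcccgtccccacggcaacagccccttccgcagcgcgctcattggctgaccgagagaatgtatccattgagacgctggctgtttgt

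In the *Dusp5* sequence 2 CArG boxes stand back to back, from 82 to 73 and from 72 to 63 bases before the start (chr19:53529063-53529072 and chr19:53529073-53529082). Of 32851 such windows 1.47% hold a CArG box, and 6 windows (0.0183%) hold 2 or more. The sequences of *Spred1* and *Dusp6* hold none. The E-box CAGCTG, the ETS motif CCGGAAG, the AP-1 motif TGANTCA and the CRE TGACGTCA, searched on both strands, are in none of the 3 windows and in 13%, 6.91%, 6.75% and 1.55% of all windows. A match describes the letters and was not tested as a site.

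*Etv1*, the ETS factor called higher in EOM, stood at 4.78, 13.1 and 23.1 RPM in EOM and at 0, 1.54 and 12.05 RPM in TA. The groups overlapped, 2 TA libraries had no read, and TA was lower in 6 of 7 donors. The log2 fold change was -2.61 ± 0.69 (adjusted p = 0.0204), and it was not called by edgeR (-1.45, adjusted p = 0.332), in Experiment 2 alone (adjusted p = 0.175) or with the donor mouse as block (adjusted p = 0.0557). *Etv5* stood at 43.7 RPM in EOM and 54.05 RPM in TA (medians). Its log2 fold change was -0.13 ± 0.51. Of the remaining genes tested, *Etv4*, *Frs3*, *Klb* and *Fgf20* were called in no comparison.

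**Figure D2:**
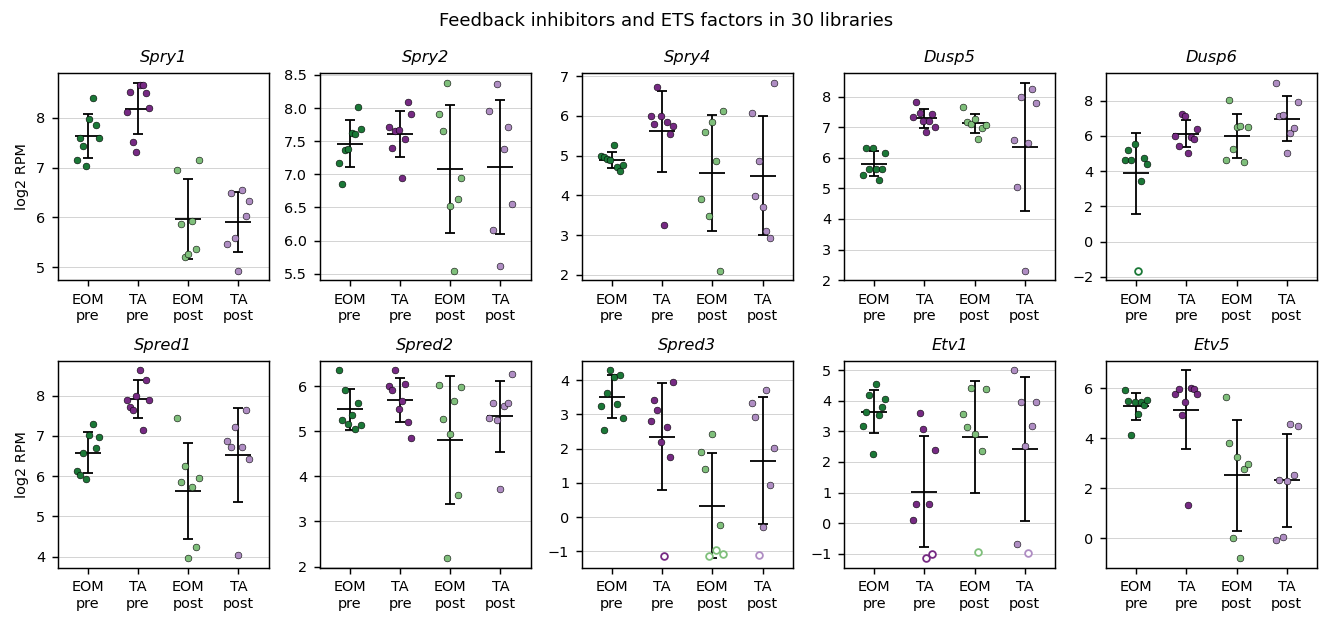
Deposited log2 RPM (y axis) of the Sprouty, Spred, *Dusp5* and *Dusp6* feedback genes and of *Etv1* and *Etv5* in the 4 groups (x axis), with libraries as points, open where there is no read, and mean ± SD. *Dusp5* separates EOM from TA before grafting and lies in EOM grafts at 98.3 to 203 RPM, above every EOM library before grafting, while *Spry1* is low in both grafts.

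Ligand transcripts were sparse. Before grafting, 7 of the 22 Fgf genes passed the filter on low values and none was called between the muscles. The highest median was 24.8 RPM, for *Fgf13* in EOM, and next came *Fgf11* (19.3 RPM) and *Fgf16* (17.04 RPM) in EOM. *Fgf11*, *Fgf12* and *Fgf13* encode FGF-homologous factors, which stay in the cell and bind sodium channels rather than receptors, while *Fgf16* encodes a secreted ligand. *Fgf13* stood at 13.5, 24.8 and 38.2 RPM in EOM and at 0, 15.3 and 27.7 RPM in TA, lower in TA in 7 of 7 donors. The log2 fold change of -1.95 ± 0.74 was not called (adjusted p = 0.11), and with the donor mouse as block it was (adjusted p = 0.0434). *Fgf12* ran the other way, from 0, 0.21 and 5.39 RPM in EOM to 0, 5.87 and 18.4 RPM in TA (2.07 ± 0.86, adjusted p = 0.144; 0.0336 with the block).

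The secreted ligands known from muscle had low medians. *Fgf2* stood at 2.63, 4.01 and 9.44 RPM in EOM and at 0.812, 3.78 and 8.12 RPM in TA, from 2 to 25 reads. *Fgf1* stood at 0, 3.23 and 53.2 RPM in EOM (up to 152 reads) and at 0, 0.271 and 12.6 RPM in TA (up to 23 reads). Most libraries were thus low for *Fgf1*, with single ones far above the median. *Fgf7* stood at 0, 2.7 and 9.67 RPM in EOM (up to 23 reads) and at 0, 0 and 1.64 RPM in TA (up to 3 reads). None of these 3 was called, at this depth. Reads of *Fgf2* and of *Nudt6*, which overlaps it on the other strand, cannot be told apart, since 49.6% to 50.5% of reads were on the sense strand, and the same holds for *Fgf1* and *Arhgap26*.

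**Figure D3:**
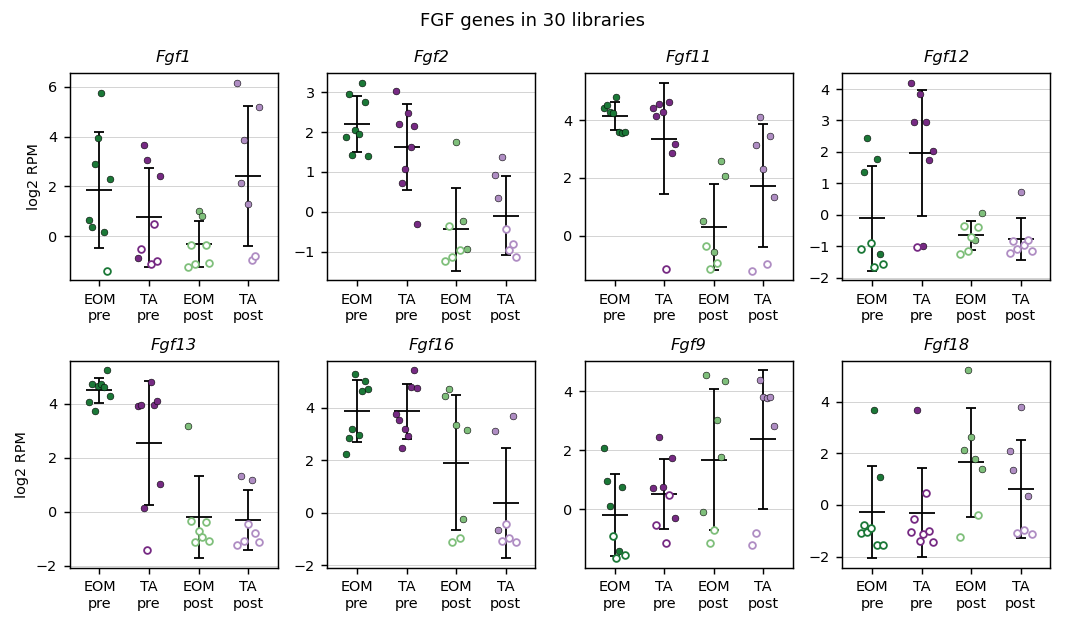
Deposited log2 RPM (y axis) of 8 Fgf genes in the 4 groups (x axis), with libraries as points, open where there is no read, and mean ± SD. *Fgf11* and *Fgf13* are low in EOM grafts, and *Fgf18* has reads in 5 of 7 EOM grafts against 2 of 8 EOM libraries before grafting.

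After grafting *Fgfr1* and *Fgfr4* were lower in both cell types on the scale of the authors. In TA grafts 0 of 25 genes tested were called higher and 10 lower, where 3.79% and 30.9% of all genes tested were. In EOM grafts 2 of 27 were called higher and 11 lower, where 3.51% and 55.8% were. The share of FGF genes called lower was below that of all genes in EOM grafts and not far above it in TA grafts. The median log2 fold change of the genes described was -1.40 in TA against -1.09 for all genes, and -0.95 in EOM against -1.48. Centred on the library median, 1 gene was called higher and 4 lower in TA grafts (7.67% and 5.68% of all genes), and 4 higher and 3 lower in EOM grafts (6.65% and 4.84%). The comparisons share libraries, so their values are given side by side and not as independent results.

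The number of genes called lower ran with the scale. In TA grafts edgeR called 1 FGF gene higher and 2 lower (5.98% and 3.07% of all genes), DESeq2 3 and 4 (8.88% and 4.15%), and limma 1 and 4 with mitochondrial genes left out of the scaling (6.93% and 7.18%), 0 and 8 with the donor mouse as block (3.7% and 24.7%), 0 and 4 in Experiment 2 alone (1.48% and 13.5%) and 0 and 7 with grafts of at least 20 cells (3.31% and 18.6%). In EOM grafts edgeR called 3 higher and 2 lower (6.93% and 2.9%), DESeq2 4 and 3 (9.13% and 4.17%), and limma 4 and 4 without mitochondrial genes (5.64% and 7.04%), 3 and 9 with the block (2.41% and 34.1%), 3 and 11 in Experiment 2 alone (3.81% and 51.4%) and 1 and 9 with grafts of at least 20 cells (2.5% and 39.7%).

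By fitted log2 fold change *Fgfr4* fell most among the receptors. By the median change within donors it did not in TA (-2.90 against -4.15 for *Fgfrl1*), and in EOM it did (-2.77 against -1.50 for *Fgfrl1*). TA grafts stood at 0, 88.6 and 245 RPM, and EOM grafts at 1.72, 63.8 and 361 RPM. No graft library reached the lowest pre-graft library of its own muscle, which held for 4.97% of genes tested in TA and 11.1% in EOM in that direction. The log2 fold change was -4.26 ± 0.88 in TA (adjusted p = 0.00204; -3.17 relative to all genes) and -3.33 ± 0.72 in EOM (adjusted p = 0.00145; -1.85 relative to all genes). It was lower after grafting in 7 of 7 TA donors and 6 of 6 EOM donors. The share of all genes that were lower in every donor is not given here, and the typical gene fell. Centring kept both calls (adjusted p = 0.0152 and 0.0298). By edgeR the EOM change was called (-1.55, adjusted p = 0.0309) and that of TA was not (-1.92, adjusted p = 0.0751). Leaving out 1 library kept both calls in 15 of 15 cases, with -4.76 to -3.25 in TA and -3.77 to -2.48 in EOM. The smallest changes came without the TA graft of mouse 6 of Experiment 2, which had no read, and without the EOM graft of mouse 4 of Experiment 2.

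*Fgfr1* stood at 62.3, 392 and 825 RPM in TA grafts and at 48.3, 449 and 1917 RPM in EOM grafts. TA grafts did not overlap TA before grafting, and the highest EOM graft lay within the EOM range. For *Fgfr1* the log2 fold change was -2.37 ± 0.46 in TA (adjusted p = 0.00131; -1.29 relative to all genes) and -2.26 ± 0.53 in EOM (adjusted p = 0.00235; -0.78 relative to all genes). After centring the TA call stood (adjusted p = 0.00654) and the EOM call did not (adjusted p = 0.092). *Fgfrl1* had no read in 4 of 7 grafts of each muscle and was called lower in both (-2.60 ± 0.92 and -2.54 ± 1.07, adjusted p = 0.033 and 0.0453). Both calls were lost after centring, by edgeR and with the donor mouse as block (adjusted p = 0.0523 and 0.174), and leaving out 1 library removed the call in 8 of 15 cases in TA and 11 of 15 in EOM (log2 fold changes of -3.19 to -2.25 and of -3.22 to -2.25). *Fgfr3* and *Fgfr2* were not called in either graft.

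*Spry1* stood at 30.4, 65.6 and 93.3 RPM in TA grafts, below every TA library before grafting (158 to 406 RPM), and at 36.9, 58.7 and 143 RPM in EOM grafts, where the ranges overlapped. Its log2 fold change was -2.27 ± 0.35 in TA (adjusted p = 0.000292; -1.19 relative to all genes) and -1.66 ± 0.34 in EOM (adjusted p = 0.00108; -0.19 relative to all genes). Measured against the other genes, the fall in TA was called after centring (adjusted p = 0.00251) and by edgeR (adjusted p = 0.00269), and that in EOM was not (adjusted p = 0.389 and 0.509).

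*Spry2* and *Spry4*, which block the same relay, were not called in either graft. *Spry2* stood at 49.2, 166 and 329 RPM in TA grafts and at 46.6, 122.6 and 334 RPM in EOM grafts, around the medians before grafting of 203 and 181 RPM. *Spred1* stood at 16.4, 105.3 and 199 RPM in TA grafts and was called lower (-1.40 ± 0.42, adjusted p = 0.0162; -0.31 relative to all genes), a call that was lost after centring (adjusted p = 0.229) and without the TA graft of mouse 3 of Experiment 2, where the log2 fold change was -0.98. *Spred3* was called lower in EOM grafts (-3.19 ± 0.70, adjusted p = 0.0016), where 3 of 7 libraries had no read, and narrowly not after centring (adjusted p = 0.0585).

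The phosphatases of ERK ran against the general fall in EOM grafts. *Dusp5* stood at 98.3, 137 and 203 RPM there, above every EOM library before grafting, as for 0.176% of genes tested in that direction, and higher in 6 of 6 donors. It rose by 1.32 ± 0.29 on the log2 scale (SE, adjusted p = 0.00156), 2.79 relative to all genes, and it was called by edgeR (2.44, adjusted p = 1.49e-05), after centring (adjusted p = 8.97e-06), in Experiment 2 alone (1.22, adjusted p = 0.00872) and with the donor mouse as block (1.21, adjusted p = 0.0309). It was not called when the failed libraries were added, a setting that cannot judge it because of the EOM library with 302 reads on genes. The EOM grafts overlapped the range of TA before grafting, 114 to 226 RPM. In TA grafts *Dusp5* stood at 4.92, 95.6 and 305 RPM and was not called (-0.94 ± 0.60, adjusted p = 0.212). The direction there turned with the scale: the value was 0.15 relative to all genes, -0.04 after centring, 0.42 by edgeR and 0.50 by DESeq2. Without the TA graft of mouse 3 of Experiment 2 it was -0.26.

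*Dusp6* stood at 23.1, 90.9 and 263 RPM in EOM grafts and at 32.0, 140 and 519 RPM in TA grafts. In EOM it was called higher (2.13 ± 0.84, adjusted p = 0.0338; 3.61 relative to all genes), a call that was lost when EOM graft 1, 3, 4 or 6 of Experiment 2 or EOM pre-graft mouse 4 of Experiment 2 was left out (log2 fold changes of 1.79 to 2.07). Without the EOM pre-graft library that had no read (mouse 2 of Experiment 2) the change was 1.34, still called. In TA the change of 0.86 ± 0.49 was not called (adjusted p = 0.158), and it was after centring (adjusted p = 0.00605) and by edgeR (1.68, adjusted p = 0.0193). *Dusp4* stayed at medians of 3.54 to 6.29 RPM in the 4 groups and was not called.

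Among the ETS factors *Etv5* was called lower in both grafts, from a median of 54.05 to 5.05 RPM in TA (-2.83 ± 0.82, adjusted p = 0.0128) and from 43.7 to 7.86 RPM in EOM (-2.75 ± 0.75, adjusted p = 0.00568). Relative to all genes the changes were -1.75 and -1.27, and neither was called after centring (adjusted p = 0.125 and 0.135). *Etv1* was not called in either graft. *Frs2*, the docking protein of the receptors, was called lower in both (-1.69 ± 0.66, adjusted p = 0.0489, and -2.75 ± 0.87, adjusted p = 0.012) and in neither after centring (adjusted p = 0.282 and 0.228). In TA the call of *Frs2* was lost in 10 of 15 cases when 1 library was left out (log2 fold changes of -1.91 to -1.06), and with the donor mouse as block (adjusted p = 0.0757).

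Of the Fgf genes, *Fgf13* fell furthest in EOM grafts, where 6 of 7 libraries had no read and the other had 19 (-4.72 ± 0.69, adjusted p = 9.24e-05; -3.24 relative to all genes). It was called after centring (adjusted p = 0.000853) and by edgeR (adjusted p = 0.0193), and in TA grafts on the scale of the authors (-2.87 ± 0.92, adjusted p = 0.0213) but not after centring (adjusted p = 0.163). *Fgf11* stood at 0, 0.678 and 5.99 RPM in EOM grafts, below every EOM library before grafting (-3.82 ± 0.68, adjusted p = 0.000438; 0.0161 after centring). *Fgf1* and *Fgf2* were called lower in EOM grafts (-2.18 ± 0.88 and -2.65 ± 0.61, adjusted p = 0.0378 and 0.00209), and neither was after centring (adjusted p = 0.549 and 0.166). That of *Fgf1* was lost in 8 of 15 cases when 1 library was left out (-2.64 to -1.62), and with the donor mouse as block (adjusted p = 0.0645).

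*Fgf16* was called lower in TA grafts, where 4 of 7 libraries had no read (-3.51 ± 0.88, adjusted p = 0.00618; 0.0429 after centring). *Fgf12* had 2 reads over all 7 TA grafts against 100 over the 8 TA libraries before grafting, which is 42.6-fold lower when the reads of each group are summed and divided by the summed depth, with an exact binomial interval of 11.5 to 356 for counting error only (log2 fold change -2.72 ± 0.82, adjusted p = 0.0154, and 0.157 after centring).

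*Fgf9* and *Fgf18*, secreted ligands, had medians of at most 1.22 RPM before grafting. *Fgf9* stood at 0, 13.7 and 20.7 RPM in TA grafts and at 0, 3.42 and 23.7 RPM in EOM grafts. Its changes of 1.85 ± 0.92 and 1.89 ± 0.91 were not called (adjusted p = 0.113 and 0.0737), and that in EOM was after centring (adjusted p = 0.0319), by edgeR (3.89, adjusted p = 0.0451) and with the donor mouse as block (adjusted p = 0.0435). *Fgf18* was not called in EOM grafts (1.92 ± 0.92, adjusted p = 0.0714), was after centring (adjusted p = 0.0384), and was not by edgeR (adjusted p = 0.202). Both genes overlapped between grafts and donors.

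**Figure D4:**
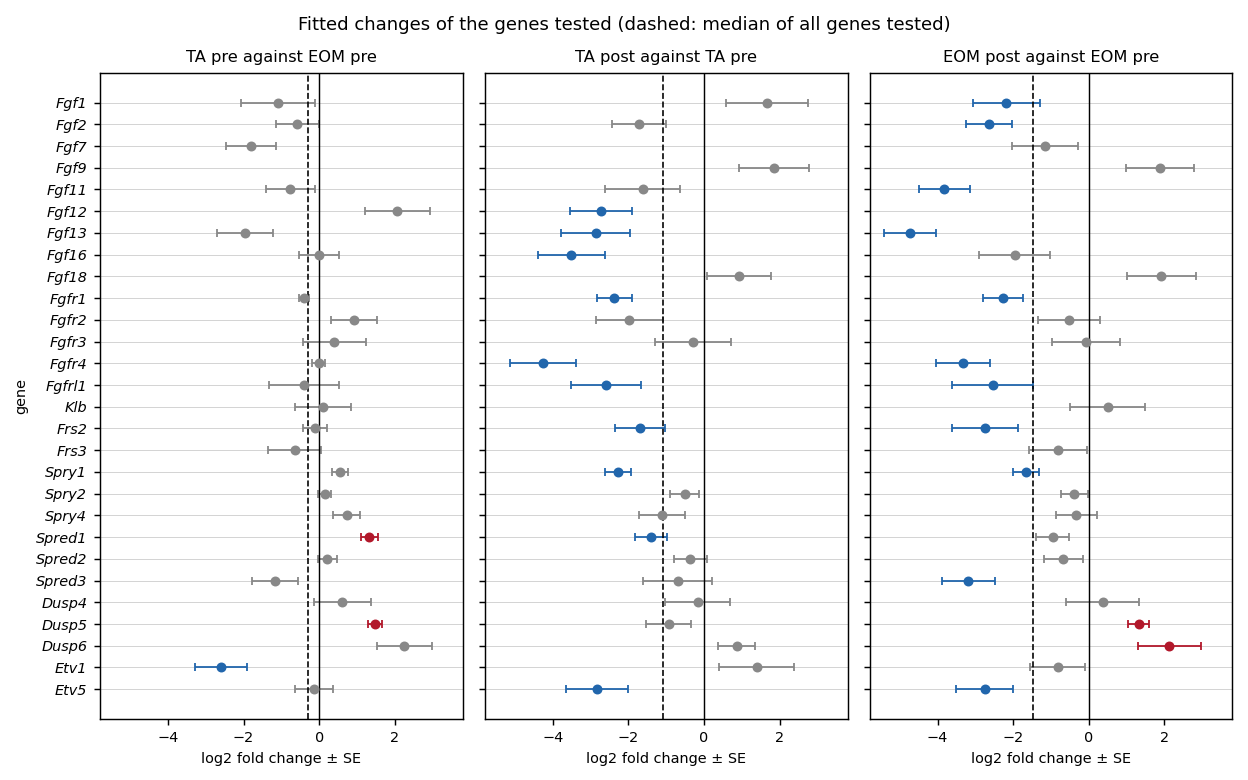
Log2 fold change ± SE (x axis) of each gene tested (y axis) in 3 comparisons, called higher in red, called lower in blue and not called in grey. The dashed line is the median of all genes tested (-0.30, -1.09 and -1.48), and *Dusp5* and *Dusp6* lie to its right in every panel.

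Markers of cell types also differed between the grafts and the libraries before grafting, and whether they varied with the FGF genes was not tested. The summed level of 11 MuSC markers, *Pax7* among them, was 12923, 14427 and 16346 RPM in EOM and 12039, 16493 and 20214 RPM in TA before grafting, and 1178, 3817 and 12234 RPM in EOM grafts and 281, 3062 and 9407 RPM in TA grafts. *Sdc4*, which is also in the co-receptor list below, made up much of these sums. It alone had medians of 9955 RPM (EOM) and 9919 RPM (TA) before grafting, and 2437 and 2194 RPM in the grafts. Of the 11 markers, 10 were called lower in EOM grafts and 11 in TA grafts, where 55.8% and 30.9% of all genes were. After centring 4 and 10 were (4.84% and 5.68% of all genes), and by edgeR 2 and 6 (2.9% and 3.07%). On the scale of the authors *Pax7* itself was called lower in both, by -1.94 ± 0.58 and -3.07 ± 0.57 (adjusted p = 0.00908 and 0.000985). The medians of all genes were -1.48 and -1.09, so the change in EOM grafts was much nearer that of the typical gene. The graft of highest sum, EOM mouse 4 of Experiment 1, lay below every EOM library before grafting and within the TA range, and that of lowest sum was the TA graft of mouse 3 of Experiment 2.

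The summed level of 10 endothelial markers was 102, 263 and 901 RPM in EOM and 19.7, 507 and 2862 RPM in TA before grafting, and 236, 3686 and 6680 RPM in EOM grafts and 1462, 5002 and 7792 RPM in TA grafts. Of these, 9 were called higher in each graft and none was at 0 throughout a group. Of all genes tested, 3.51% were called higher and 55.8% lower in EOM grafts, and 3.79% and 30.9% in TA grafts. For the myofibre list 6 of 9 tested were called higher and 1 lower in EOM grafts (1 and 2 in TA grafts), for the fibro-adipogenic list 1 of 10 and 3 (5 of 9 and 2 in TA), for the Schwann cell list 0 of 8 and 5 (0 of 7 and 0), and for the macrophage list 0 of 7 and 1 (1 of 3 and 0). Before grafting, the endothelial list had 1 of 10 higher and 1 lower in TA, the myofibre list 2 of 9 and 0, the fibro-adipogenic list 0 of 9 and 3, the Schwann cell list 0 of 8 and 1, the macrophage list 0 of 4 and 0, and the MuSC list 2 of 11 and 1, with *Pax7* higher in TA (1.15 ± 0.22, adjusted p = 0.00153). Before grafting 1.26% of all genes were called higher in TA and 3.31% lower. After centring the endothelial list had 9 higher and 0 lower in EOM grafts (10 and 0 in TA), and the myofibre list 7 and 0 (3 and 1). The fibro-adipogenic list then had 1 and 0 (6 and 1), the Schwann cell list 0 and 0 (0 and 0), and the macrophage list 0 and 0 (1 and 0). Of all genes, 6.65% were higher and 4.84% lower in EOM grafts after centring, and 7.67% and 5.68% in TA grafts. The part of these cell types in the changes was not tested.

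Set against the MuSC markers of the same library, a scale chosen after the values were seen, *Fgfr1* stood in EOM at 116, 133 and 157 RPM per 1000 RPM of markers before grafting and at 37.97, 135 and 178 in grafts, and in TA at 78.1, 91.7 and 108 before and 52.8, 89.6 and 222 after. The medians of *Fgfr1* before and after grafting were thus close on this scale, with a wider spread after. *Fgfr4* stood at 26.02, 39.9 and 54.3 before and 1.36, 24.7 and 54.1 after in EOM, and at 29.3, 37.4 and 52.7 before and 0, 20.1 and 71.8 after in TA, which overlap. *Spry1* stood at 9.57, 12.4 and 24.8 before and 4.65, 13.1 and 51.1 after in EOM, and at 13.1, 20.4 and 25.7 before and 5.12, 25.8 and 108 after in TA. On this scale the ranges of *Spry1* before and after grafting overlapped in both muscles, and the median was not lower after grafting. *Spred1* stood at 7.66, 16.5 and 25.2 before and 14.4, 29.4 and 68.1 after in TA, which overlap. *Dusp5* stood at 2.88, 3.69 and 6.24 before and 16.6, 32.9 and 131 after in EOM, with no overlap, and at 7.21, 9.80 and 13.4 before and 12.3, 26.8 and 73.0 after in TA, where the ranges met at their edges. The median of *Dusp5* was thus higher after grafting in both muscles. *Dusp6* stood at 0, 1.67 and 3.56 before and 2.00, 32.8 and 77.1 after in EOM, and at 2.04, 3.30 and 11.8 before and 9.74, 64.1 and 301 after in TA, with higher medians after grafting and some overlap in both. Since the scale divides by marker sums that had lower medians in grafts, a gene at the same RPM stands higher on it there. *Sdc4* had the largest median of these markers in every group, so the scale is largely a ratio to that gene.

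**Figure D5:**
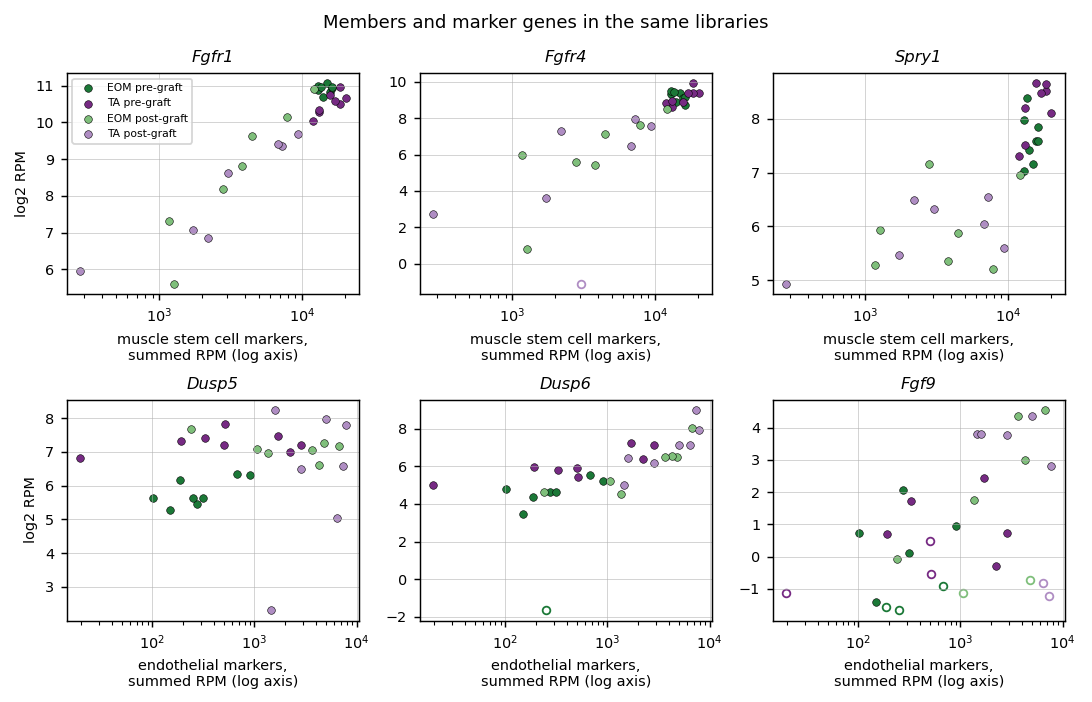
Deposited log2 RPM (y axis) of *Fgfr1*, *Fgfr4* and *Spry1* against the summed RPM of 11 MuSC markers, and of *Dusp5*, *Dusp6* and *Fgf9* against that of 10 endothelial markers (x axes, log scale). Each point is a library coloured by group, open where it has no read of the gene. The 5 grafts of lowest MuSC sum have 48.3 to 159 RPM of *Fgfr1*, and the 3 libraries with most *Dusp6* (245 to 519 RPM) have endothelial sums of 6680 to 7792 RPM. The EOM graft of lowest endothelial sum (236 RPM) has at least 98.3 RPM of *Dusp5*, above every EOM library before grafting. These relations were not tested.

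Between the grafts no gene described was called. Of 23 tested 0 were called higher in TA and 0 higher in EOM by limma, as were 0% of all 12377 genes in each direction, and 1 gene had an unadjusted p under 0.05. edgeR (0% of all genes) and DESeq2 (0.0162% and 0.00808% of all genes) also called none of them. *Fgfr1* differed by -0.52 ± 0.65 (TA over EOM), *Fgfr4* by -0.94 ± 1.06, *Spry1* by -0.05 ± 0.54 and *Dusp5* by -0.77 ± 0.64. Standard errors of 0.54 to 1.06 log2 units limit what could be detected here. *Spred1*, higher in TA before grafting, was higher in the TA graft in 6 of 6 donors with both grafts (0.89 ± 0.60, unadjusted p = 0.151 with limma).

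Subtracting the TA change from that of EOM gave 0 of 30 genes called in either direction, where 0.0554% and 0.152% of all genes were, and 4 had an unadjusted p under 0.05. *Dusp5* had the largest difference above 0, 2.25 ± 0.72 (unadjusted p = 0.00339, adjusted p = 0.364 with limma). It was called after centring (2.66, adjusted p = 0.0301; 0.097% of all genes were) and by DESeq2 (0.492%), and not by edgeR (adjusted p = 0.101) or when centring and the donor mouse as block were combined (2.69, adjusted p = 0.0918). Leaving out 1 library at a time gave 1.58 to 2.57 and no call. For *Fgfr1*, *Fgfr4* and *Spry1* the differences were 0.11 ± 0.73, 0.93 ± 1.26 and 0.61 ± 0.49.

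Genes around the FGF relay were described by lists. Among 26 genes of heparan sulphate synthesis and co-receptors, 0 of 25 tested were higher in TA before grafting and 3 lower, the membrane proteoglycans *Sdc1* (-3.95 ± 0.62, adjusted p = 0.000192) and *Sdc3* (-3.35 ± 0.68, adjusted p = 0.00288) and *Flrt1* (-3.15 ± 0.74, adjusted p = 0.00878). By edgeR only *Sdc1* of them was called (adjusted p = 0.000238; 0.0999 for *Sdc3* and 0.281 for *Flrt1*). Of all genes tested, 1.26% were called higher in TA and 3.31% lower by limma, and 1.87% and 1.45% by edgeR. The median log2 fold change of the list was -0.71 against -0.30 for all genes. After grafting 10 were lower in TA (median -0.60 against -1.09) and 15 in EOM (-1.91 against -1.48) and none higher, where 30.9% and 55.8% of all genes were lower. After centring 3 and 2 were lower (5.68% and 4.84% of all genes), and by edgeR 2 and 1 (3.07% and 2.9%). The sulphotransferase *Hs6st2* fell in TA grafts (-4.11 ± 0.80, adjusted p = 0.00126), and the glypican *Gpc4* in EOM grafts (-4.15 ± 0.75, adjusted p = 0.000483), both also after centring (adjusted p = 0.00463 and 0.0191).

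Of the relay from Ras to ERK, 0 of 20 tested were called between the muscles before grafting, 9 were lower in TA grafts and 13 in EOM grafts, with medians of -0.32, -0.93 and -1.36 against -0.30, -1.09 and -1.48 for all genes, of which 30.9% and 55.8% were lower after grafting. After centring 1 of them was called higher and 1 lower in TA grafts, the latter being the ERK kinase *Map2k2* (-1.97 ± 0.43 on the scale of the authors, adjusted p = 0.00256), and 0 in EOM grafts. Of all genes, 7.67% were then higher and 5.68% lower in TA grafts, and 6.65% and 4.84% in EOM grafts. Of the p38 relay, 0 of 10 were called before grafting, where 1.26% of all genes were higher and 3.31% lower in TA. After centring and by edgeR 1 was higher in TA, as were 1.77% and 1.87% of all genes. In TA grafts 1 of 10 was higher, *Mapk11* (2.46 ± 0.89, adjusted p = 0.0358; 0.0807 by edgeR), where 3.79% of all genes were. In EOM grafts 5 of 9 were lower, where 55.8% of all genes were, *Mapk14* among them (-3.67 ± 0.86, adjusted p = 0.00231; 0.0473 after centring and 0.287 by edgeR). After centring 1 p38 gene was lower there (4.84% of all genes), and by edgeR 0 (2.9%).

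Other inhibitors of the relay held 15 tested genes. *Il17rd*, a membrane inhibitor of FGF receptor signalling also known as Sef, was the only one called before grafting. It was lower in TA (-2.60 ± 0.36, adjusted p = 3.81e-05), as were 3.31% of all genes. After grafting 6 were lower in TA and 10 in EOM, where 30.9% and 55.8% of all genes were (medians -0.81 and -1.48 against -1.09 and -1.48). After centring 1 was higher and 3 lower in TA (7.67% and 5.68% of all genes) and 2 higher and 2 lower in EOM (6.65% and 4.84%). By edgeR the counts were 1 and 2 (5.98% and 3.07%), and 2 and 2 (6.93% and 2.9%). Those lower included *Pebp1*, which keeps Raf from its substrate (-2.01 ± 0.36 and -2.42 ± 0.39, adjusted p = 0.000713 and 0.000202), and *Rasa3*, a GTPase activator of Ras (-2.74 ± 0.54 and -2.94 ± 0.55, adjusted p = 0.00147 and 0.000595). Both genes were called in both grafts after centring.

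Of genes known to be induced by ERK, 15 were tested. Before grafting 4 of 15 were called higher and 0 lower in TA, where 1.26% and 3.31% of all genes were. The list had a median of 0.49 against -0.30 for all genes. Those called higher included *Nr4a1* (1.35 ± 0.15, adjusted p = 4.19e-06), *Ccnd1* (2.72 ± 0.42, adjusted p = 0.000165) and *Phlda1* (1.59 ± 0.29, adjusted p = 0.00104). After grafting 10 were lower in TA and 6 in EOM, where 30.9% and 55.8% of all genes were, with medians of -2.004 against -1.09 and -1.02 against -1.48. After centring 1 was higher and 7 lower in TA (7.67% and 5.68% of all genes), and 4 higher and 1 lower in EOM (6.65% and 4.84%). By edgeR the counts were 1 and 7 (5.98% and 3.07%), and 3 and 1 (6.93% and 2.9%). *Egr2* fell in both (-3.38 ± 0.48 and -3.79 ± 0.58, adjusted p = 0.00017 and 0.000141), also after centring. Between the grafts none of the genes of these 5 lists was called, nor in the difference of the changes, where after centring 1 was, *Ccnd1* (3.25, adjusted p = 0.0146).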

How the data were processed

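Poly-A RNA was separated from genomic DNA of the same cells, amplified and sequenced. Per the labels and the methods, the authors trimmed reads with Trim Galore 0.4.4, mapped them to GRCm38 with HISAT2 2.1.0 and deposited log2 RPM per gene from Seqmonk. Read totals and the percent of reads in genes, mitochondria and on the sense strand come from a report the authors deposited. The annotation release and counting rule are not given in the sources used here. The bisulfite libraries of the series were not analysed here. All values were whole reads (100.0000% of 1038600 values, within 0.01 read), and counts recovered from the deposited log2 RPM were used in edgeR 4.0.16 and DESeq2 1.42.0 as alternatives. The main test was limma 3.58.1 (R 4.3.3) with a trend and Benjamini-Hochberg adjustment over all genes tested. In data simulated for the pre-graft comparison only, it recovered most of the large changes put into well-read genes. That simulation cannot speak for the grafts or for genes of few reads. The 10 libraries that failed the quality criteria of the study were left out. Libraries of 1 mouse are paired by design, and their deviations had median correlations of -0.04 to 0.07, so the donor mouse was used as a block in an alternative. In comparisons of 2 groups the block kept only donors with a library in both. That left 14 of 16 libraries before grafting, 14 of 15 for TA grafts and 12 of 15 for EOM grafts.

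Genes and lists were chosen with earlier results of these data known. Values are given for genes called or not overlapping in any comparison, for the receptors and *Spry1*, and for up to 3 called genes per list and comparison. *Spry2*, *Spry4*, *Spred2*, *Dusp4*, *Fgf7*, *Fgf9* and *Fgf18* were added after their values were seen, and so was *Ccnd1* in the difference of the changes. Promoter sequences are from RefSeq (GRCm38.p6), where 32 of the 42 genes had one, and the intervals cover counting error only.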

Additional observations from a re-analysis of the deposited data

Results flagged for a closer look

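In 15 of 76 groups of libraries of the genes named, 1 library stood apart from the others by Dixon's criterion. The criterion is set to be met by about 1 in 20 groups of independent, normally distributed values. Many values here are of libraries without a read, and the groups share libraries, so the count cannot be judged against that share. Values are log2 RPM, and a library without a read stands at 0.9 of a read.

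The TA pre-graft library of mouse 3 of Experiment 2 was the lowest for *Etv5* (1.33, 5 reads) and, without a read, for *Fgf11*, *Fgfr3* and *Spred3* (-1.14 each). The others held 41 to 133 reads of *Etv5*. The TA graft of the same mouse was the lowest for *Spred1* (4.04, 20 reads) and *Frs2* (-0.44, no read) and the highest for *Fgf12* (0.71, 2 reads against none in the others).

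The EOM pre-graft library of mouse 2 of Experiment 2 was the lowest for *Dusp6* (-1.67, no read) and *Fgfr3* (0.0697, 3 reads), where the others held 29 to 77 and 19 to 83 reads. It also had the highest sums of macrophage markers (2183 RPM, group median 35.1) and Schwann cell markers (4641 RPM, group median 1104) in its group. A link between these values was not tested. The EOM pre-graft library of mouse 6 of Experiment 2 had no read of *Fgfrl1* (-1.56).

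Among EOM grafts, that of mouse 4 of Experiment 2 was the lowest for *Fgfr4* (0.79, 3 reads against 50 to 766) and *Etv1* (-0.95, no read), and that of mouse 2 of Experiment 2 for *Fgfr3* (-1.14, no read). The EOM graft of mouse 4 of Experiment 1 was the highest for *Fgf13* (3.16, 19 reads), and that of mouse 3 of Experiment 2 for *Fgf2* (1.76, 5 reads).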

How the results depend on the processing

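Counts are of FGF genes called. For TA over EOM before grafting, 2 were higher in TA, and with the replicate block (donor mouse) 5, with the block after centring 5, by edgeR and by DESeq2 4, 0 with the failed libraries and 0 in 1 fit over 4 groups. Of all genes, 1.26% were higher in TA in the main test, 2.04% with the block and 2.58% with the block after centring. By edgeR 1.87% were, by DESeq2 2.47%, with the failed libraries 0.227% and in 1 fit over 4 groups 0.514%. The 1 gene higher in EOM became 0 in Experiment 2 alone, with the failed libraries, in 1 fit over 4 groups, with mitochondrial genes left out of the scaling, by edgeR with or without the block, by DESeq2, and with the block after centring. Of all genes, 3.31% were higher in EOM in the main test, 2.2% in Experiment 2 alone, 1.33% with the failed libraries and 1.04% in 1 fit. Without mitochondrial genes 2.13% were, by edgeR 1.55% with and 1.45% without the block, and 1.97% by DESeq2 and with the block after centring. In TA grafts 0 were higher, and 1 without mitochondrial genes, after centring with or without the block, and by edgeR with or without the block, and 3 by DESeq2. Of all genes, 3.79% were higher in the main test, 6.93% without mitochondrial genes, and 6.53% with and 7.67% without the block after centring. By edgeR 3.87% with and 5.98% without the block were, and by DESeq2 8.88%. The 10 lower became 6 without the filter, 4 in Experiment 2 alone, without mitochondrial genes, after centring and by DESeq2, 3 with the block after centring, and 2 by edgeR with or without the block. Of all genes, 30.9% were lower in the main test, 11.3% without the filter, 13.5% in Experiment 2 alone and 7.18% without mitochondrial genes. After centring 5.68% were, by DESeq2 4.15%, with the block after centring 3.69%, and by edgeR 1.96% with and 3.07% without the block. In EOM grafts the 2 higher became 4 without mitochondrial genes, after centring and by DESeq2, 1 without the filter, with the block in edgeR, with the block after centring and from at least 20 cells, and 0 with the failed libraries. Of all genes, 3.51% were higher in the main test, 5.64% without mitochondrial genes, 6.65% after centring and 9.13% by DESeq2. Without the filter 2.48% were, with the block 0.412% in edgeR and 2.19% after centring, from at least 20 cells 2.5%, and with the failed libraries 1.12%. The 11 lower became 4 without mitochondrial genes, 3 after centring, 3 by DESeq2, 2 by edgeR, 1 with the block after centring and 0 with the block in edgeR. Of all genes, 55.8% were lower in the main test, and 7.04%, 4.84%, 4.17%, 2.9%, 0.863% and 0.237% in these settings in the same order. In the difference of the changes 0 became 1 without mitochondrial genes, after centring and by DESeq2, and stayed 0 with the block after centring. The cause of these shifts was not tested. The failed libraries include 1 of EOM before grafting with 302 reads on genes, so counts with them cannot judge comparisons that involve that group. Leaving out 1 library gave 2 to 4 higher and 1 lower in TA before grafting, 0 to 1 higher and 7 to 12 lower in TA grafts, 1 to 4 higher and 9 to 14 lower in EOM grafts, and 0 in the others.

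With the donor mouse as replicate block on the scale of the authors, 8 were lower in TA grafts (24.7% of all genes), and 3 higher and 9 lower in EOM grafts (2.41% and 34.1%). The edgeR fit with the block and the centred fit with the block were chosen after seeing the data. Of 26 called fold changes, 21 kept their call with the block, 12 after centring, 11 by DESeq2, 8 by edgeR, 7 with the block after centring and 5 with the block in edgeR, and none changed direction. Grafts of as few as 9 cells and ligands of a few reads limit what could be detected. Every graft library also held fewer cells than the libraries before grafting, and the part of this in the changes was not tested.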
